A study of Sus scrofa with 5 samples.

Results

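The epithelium of the piglet cecum was compared between the library of 0-day-old piglets (d0, the day of birth) and the library of 1-day-old piglets (d1), with 1 single-cell library at each age. A barcode counted as an epithelial cell when it held at least 200 genes, had under 30% of its UMIs (unique molecular identifiers, 1 per captured transcript) on the 13 mitochondrially encoded genes, held at least 4 UMIs of EPCAM, KRT8, KRT18 and KRT19 together with 2 of these genes detected, and held no UMI of the leukocyte gene PTPRC. That left 5519 cells at d0 and 4143 cells at d1, 9662 of the 73564 barcodes in the 5 libraries of the series. EPCAM is a surface protein of epithelial cells, and KRT8, KRT18 and KRT19 are their keratins, so the cells were chosen by the measured levels of these genes and of PTPRC, which are therefore no result.

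The series followed male Large White piglets born to 3 sows and kept on maternal milk, with cecal mucosa taken at days 0, 1, 7, 14 and 21. Cells of 5 piglets were mixed at each age before a droplet library (10x Genomics, 3' chemistry) was made. Age, library, handling of the tissue and the piglets behind a library therefore cannot be told apart. The 2 libraries give no spread between animals, which leaves the ages without a test, and each 95% interval printed here covers counting error only.

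The cecal epithelium is a single layer of cells folded into crypts. Stem cells near the crypt base divide, and their daughters move upward and become absorptive cells, mucus-making goblet cells, hormone-making enteroendocrine cells or tuft cells. In newborn pigs the absorptive cells of the gut carry a large endocytic and lysosomal apparatus, take up whole proteins of colostrum, and handle a sudden flow of milk lipid. In the same days the mucosa meets its first microbes, and epithelial cells answer microbial products with antimicrobial proteins, oxidants and interferon-induced genes.

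The cells held 56583745 UMIs at d0 and 49158861 at d1, with a median of 8286 and 8692 UMIs and of 2380 and 2494 genes per cell. Among cells within the mitochondrial limit, 77.3% at d0 (76.3 to 78.3) and 34.1% at d1 (33.3 to 35.0) were epithelial, and the limit itself removed 34.3% of the cells that met the other conditions at d0 and 14.2% at d1. The d0 library lost more epithelial cells to it, and what those cells would add was examined only by lifting the limit, as described with the other processing alternatives. The libraries shared 53 barcodes over all cells and 6 barcodes among the epithelial cells, which is 0.109% of the d0 and 0.145% of the d1 epithelial cells. Just inside the epithelial limit, 97 d0 cells and 461 d1 cells held 4 or 5 UMIs of the keratins and EPCAM, and 116 and 1703 cells just outside it held 2 or 3. CDX2, an intestinal transcription factor that the rule did not use, stood at 2.41 UMIs per 10000 (2.37 to 2.45) in the d0 cells and 2.59 (2.55 to 2.64) in the d1 cells, so the chosen cells carried an intestinal epithelial gene at like levels in both libraries.

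The epithelium was also divided, on measured levels again, by TMIGD1, a membrane protein of mature absorptive cells, and DPEP1, a brush border dipeptidase, at a summed level of 15 UMIs per 10000. At d0, 3325 cells or 60.2% (58.9 to 61.5) lay at or above that limit, and at d1 921 cells or 22.2% (21.0 to 23.5). These cells are called marker-high and the others, 2194 at d0 and 3222 at d1, marker-low. The median summed level was 20.8 per 10000 at d0 and 2.66 at d1, and 9.02% of d0 cells and 28.3% of d1 cells held no UMI of either gene. The limit falls within a continuous range: 289 d0 cells and 106 d1 cells lay from 15 to 18 per 10000, and 315 and 146 lay from 12 to 15. Marker-high cells are therefore a range of a measured level and not a cell type.

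**Figure D1:**
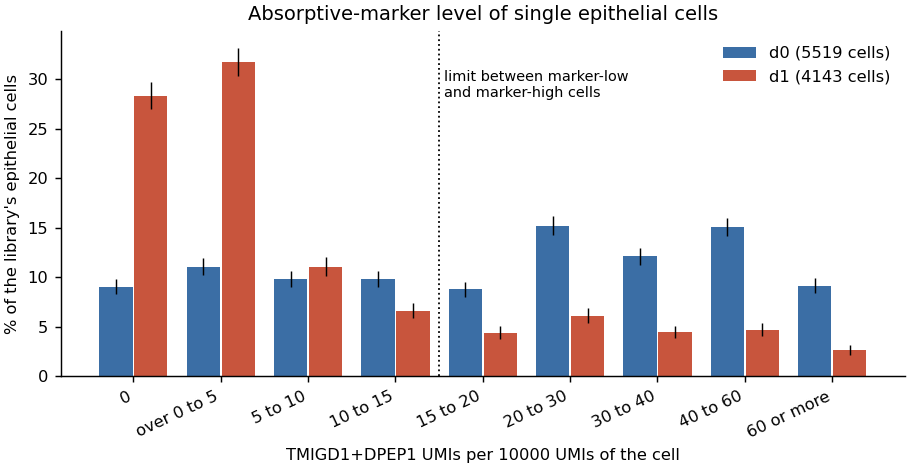
Share of epithelial cells (%) by the summed level of TMIGD1 and DPEP1 (UMIs per 10000), for the d0 and the d1 library, with 95% intervals that cover counting error only. Of the d0 cells 60.2% and of the d1 cells 22.2% lie at 15 per 10000 or above.

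The summed UMIs of each gene were divided by all UMIs of the cells and given per 10000. A gene was examined where the mean of its d0 and d1 levels was at least 0.2 per 10000, and was called higher or lower at d1 where the log2 ratio of the levels, with 0.1 added to each, was at least 1 or at most -1. This log2(level + 0.1) scale understates the ratio of genes with low levels. A gene close to absent at d0 is examined only through its d1 level, and the reverse, so counts of examined genes depend in part on the change. Over the whole epithelium, 92 of 5389 genes (1.71%) were called higher at d1 and 108 (2.00%) lower. In marker-high cells 117 of 5298 genes (2.21%) were higher and 25 (0.472%) lower, and in marker-low cells 93 of 5368 (1.73%) were higher and 79 (1.47%) lower. The genes used to choose and divide the cells were not left out of these counts, and their own ratios are no result. The median log2 ratio of all examined genes was 0.02 in the whole epithelium, 0.02 in marker-high cells and 0.03 in marker-low cells.

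Fewer genes were called lower over the whole epithelium once the share of marker-high UMIs was matched. When the d1 cells were weighted so that marker-high cells held the share of UMIs that they hold at d0, 20 genes in place of 108 were called lower over the whole epithelium, and 105 in place of 92 were called higher. TMIGD1 and DPEP1, which define the classes, are among the examined genes. Marker level within the classes was not matched. Of the marker-low cells, 1109 of 2194 at d0 and 2490 of 3222 at d1 had a summed marker level under 5. With the class limit at 5, 44 genes in place of 79 were called lower in marker-low cells. The part of this difference in the marker-low falls given below was not tested. Of the 4829 genes examined in both classes, 56 were higher in both, 10 were lower in both, and 3 (APOA1, NTS and PYY) were higher in marker-high and lower in marker-low cells. No gene had the reverse pattern.

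The d1 library also held far more RNA of stromal cells in its epithelial barcodes than the d0 library. In epithelial cells the summed level of 7 fibroblast markers was 0.0935 per 10000 at d0 and 3.33 at d1, that of 6 endothelial markers was 0.0316 and 2.03, and that of 6 pericyte and smooth muscle markers was 0.0610 and 0.822, with 0 of these markers at a count of 0 in either library. In cells with PTPRC and no epithelial UMI (349 at d0, 363 at d1), which should lack stromal genes as well, the fibroblast sum went from 0.572 to 5.45 per 10000 and the endothelial sum from 0.923 to 4.83. The sum of 7 T and NK cell markers in epithelial cells was 0.140 and 0.165 per 10000, against 88.6 and 38.7 in the PTPRC cells. It was 0.105 and 0.249 in marker-high cells and 0.193 and 0.149 in marker-low cells. The cell rule left out cells with PTPRC, so this sum cannot be set beside the stromal sums as a like measure. IGFBP7, an extracellular protein of vessels and stroma, had the highest log2 ratio over the whole epithelium of the genes named here, from 0.044 (0.0387 to 0.0498) to 2.40 per 10000 (2.35 to 2.44). In the PTPRC cells IGFBP7 went from 0.0702 to 4.14 per 10000. COL3A1, a fibrillar collagen of fibroblasts, went from 0.0368 to 1.62 per 10000 in epithelial cells and from 0.241 to 2.63 in the PTPRC cells. The log2 ratios of IGFBP7 and COL3A1 were 4.12 and 3.65 in epithelial cells and 4.64 and 3.00 in PTPRC cells, so both genes gained in barcodes of either kind.

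The other genes among the 12 largest rises that passed in both classes were FABP5, COL4A1, PLVAP, CLEC3B, GNG11, VIM, LGALS1, ADAMDEC1, GPX2 and CXCL14, and only GPX2 of the 12 was higher inside the epithelium than outside it. Of the 92 genes that were higher at d1, 42 (45.7%) had a higher d1 level in cells with no epithelial UMI than in the epithelium, against 42.9% of all examined genes. Leaving out every cell with a UMI of a marker of another lineage and the 5% of cells with most UMIs kept 4515 d0 cells and 972 d1 cells. The log2 ratio of IGFBP7 was then 2.02, that of GPX2 2.89 and that of FABP6 -3.86. The part of RNA from outside the epithelium in these rises was not tested. A second count was therefore made over the 2719 genes that were at least as high inside the epithelium as outside it in both libraries, an alternative added after the data were seen. It held 42 rises (1.54%) and 86 falls (3.16%). In marker-high cells it gave 61 rises (2.22%) and 19 falls (0.691%) of 2749 genes, and in marker-low cells 41 rises (1.55%) and 60 falls (2.27%) of 2646 genes.

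**Figure D2:**
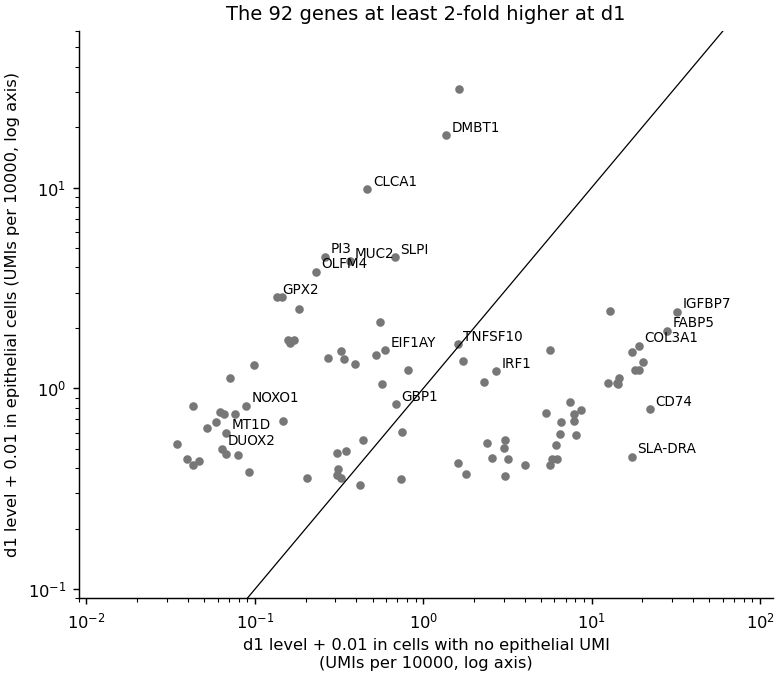
The d1 level of each of the 92 genes higher at d1, in cells with no epithelial UMI (x axis) and in the epithelium of the same library (y axis). Both are in UMIs per 10000 on log axes. The 42 genes below the diagonal, IGFBP7 and COL3A1 among them, are higher outside the epithelium, and GPX2, DMBT1 and SLPI lie above it.

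**Figure D3:**
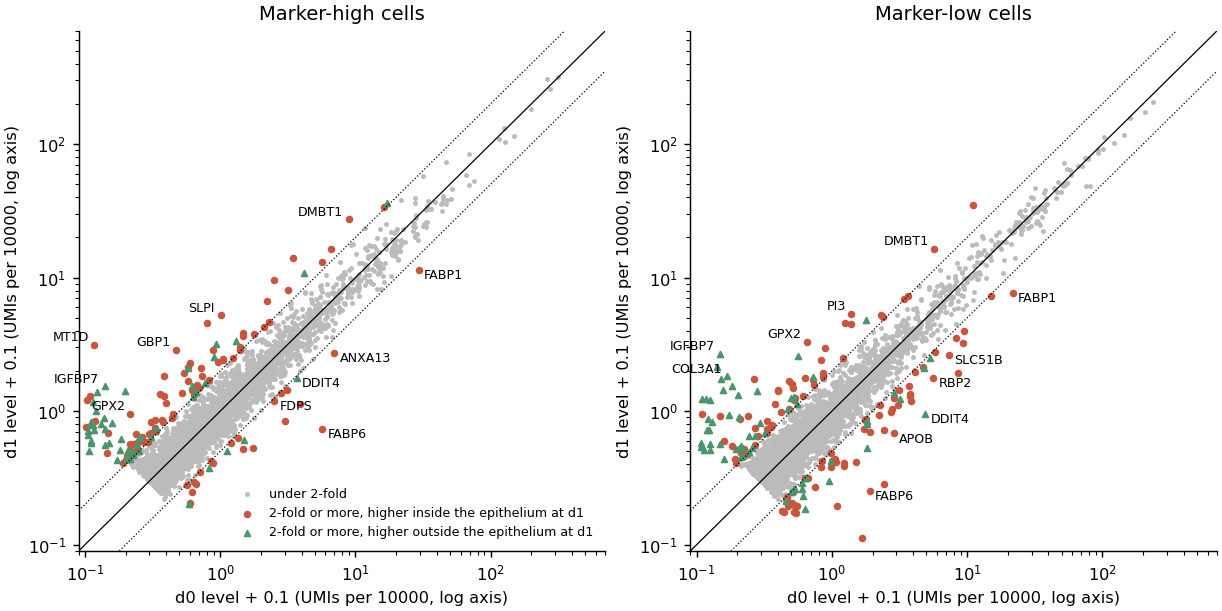
Level of each examined gene at d0 (x axis) and d1 (y axis), in UMIs per 10000 with 0.1 added, on log axes, for marker-high cells (left) and marker-low cells (right). Called genes are coloured by whether the d1 level is higher inside or outside the epithelium: 117 genes are higher and 25 lower at d1 in marker-high cells, and 93 are higher and 79 lower in marker-low cells.

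Of the genes lower in both classes, FABP6 had the largest fall over the whole epithelium. FABP6 encodes the ileal bile acid binding protein of the cytosol (chr16:63297594-63303675, Sscrofa11.1). Its level was 4.07 per 10000 at d0 (4.02 to 4.13) and 0.23 at d1 (0.217 to 0.244), a log2 ratio of -3.66 (-3.72 to -3.60). In marker-high cells it went from 5.60 to 0.635 per 10000 and in marker-low cells from 1.80 to 0.153, with log2 ratios of -2.96 and -2.91. FABP6 UMIs were present in 1535 d0 cells and 253 d1 cells, so the lower level came with fewer cells holding the transcript. The d1 count was concentrated in few cells, and 1 cell held 16.6% of it. With each cell thinned to 1000 UMIs, 11.3% of marker-high cells (10.2 to 12.4) had a FABP6 UMI at d0 and 3.01% (1.98 to 4.38) at d1, against 29.4% and 8.25% unthinned. The PTPRC cells, at a median of 2352 UMIs at d0 and 3314 at d1, gave 3.04% and 0.602% after thinning and 6.30% and 0.551% before it. In d1 marker-low cells the thinned share, 0.423% (0.226 to 0.723), did not exceed that of the PTPRC cells.

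The other bile acid genes had smaller ratios that depended on the class. SLC10A2, the apical transporter that brings bile acids into absorptive cells, went from 1.47 per 10000 (1.44 to 1.498) to 0.253 (0.240 to 0.268) over the epithelium. Its log2 ratio was -0.84 in marker-high cells, short of the limit for a call. In marker-low cells it was -1.22, but the mean level there lay below that needed for a call. SLC51B, a subunit of the basolateral exporter of bile acids, stood at 11.5 per 10000 at d0 and 3.43 at d1, with log2 ratios of -0.83 in marker-high and -1.47 in marker-low cells. SLC51A, the other subunit of that exporter, had log2 ratios of -0.53 and -0.06 in the 2 classes. NR1H4, the nuclear receptor for bile acids FXR, was not lower in marker-high cells, where its level was 1.48 per 10000 at d0 and 2.13 at d1, and its log2 ratio was -1.002 in marker-low cells. Of 5 examined genes of the bile acid list, 3 were lower and 0 higher over the whole epithelium, with a median of -1.23, where 2.00% of all examined genes were lower. In marker-high cells 0 of 6 were lower (0.472% of all genes) with a median of -0.38, and in marker-low cells 2 of 4 (1.47% of all genes) with a median of -0.53. FABP6 is counted with the lipid list and not in this one.

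FABP1, the liver type fatty acid binding protein, was also lower in both classes. Its level went from 26.2 per 10000 (26.1 to 26.3) to 8.17 (8.09 to 8.25), with log2 ratios of -1.36 in marker-high cells and -1.50 in marker-low cells. The FABP1 call in marker-high cells was kept under 14 of 15 alternatives, and the ratio was -0.196 in the remaining one. ANXA13, an annexin of the intestinal epithelium, went from 5.58 to 1.46 per 10000 and had log2 ratios of -1.35 and -1.50. DDIT4, an inhibitor of mTORC1 induced by stress, went from 4.07 to 0.98 per 10000, with -1.04 in marker-high and -2.37 in marker-low cells. In cells with a marker level of 50 or more DDIT4 was not lower, at 2.06 per 10000 at d0 and 2.32 at d1, and its call in marker-high cells was kept under 9 of 15 alternatives. PMM1, a phosphomannomutase, went from 1.03 to 0.242 per 10000, with -1.28 and -1.06. In the PTPRC cells DDIT4 stood at 3.85 and 4.25 per 10000, so its fall did not run through every kind of cell in the library.

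A minority of the genes of cholesterol synthesis were called lower at d1, with medians below 0 in each class. Over the whole epithelium 2 of 19 examined genes were lower, where 2.00% of all genes were, and the median was -0.61. Of the 19 examined genes of that list in marker-high cells, 5 were called lower and 0 higher, where 0.472% of all genes were lower, none had a ratio above 0, and the median log2 ratio was -0.82 beside 0.02 for all examined genes. In marker-low cells the median was -0.43, with 1 of 17 genes called lower (1.47% of all genes). FDPS, which makes farnesyl pyrophosphate, was lower in both classes, from 2.39 per 10000 to 1.09 in marker-high cells and from 2.11 to 0.832 in marker-low cells. SQLE, which oxidises squalene, went from 1.38 per 10000 (1.34 to 1.42) to 0.423 (0.379 to 0.471) in marker-high cells, a log2 ratio of -1.50, and had -0.61 in marker-low cells. MSMO1, a sterol demethylating oxidase, had log2 ratios of -1.10 and -0.54. In the PTPRC cells FDPS stood at 0.812 and 0.901 per 10000.

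Of the lists of pathways, leaving the cell type markers aside, that of antimicrobial genes had the highest median ratio over the whole epithelium. Of the 10 examined genes of antimicrobial and acute phase defence, 6 were higher and 0 lower over the whole epithelium, with a median of 1.38, where 1.71% of all examined genes were higher. In marker-high cells 5 of 6 were higher (2.21% of all genes) with a median of 2.30. In marker-low cells 4 of 9 were higher and 2 lower (1.73% and 1.47% of all genes) with a median of 0.93. Genes of this list that were low at d0, such as DUOX2, were examined only through their d1 level, so these counts and medians depend in part on the rise. Summed over the 29 list genes in the matrices, with no level filter, the level went from 15.5 to 40.6 per 10000 in marker-high cells. That sum went from 20.1 to 35.2 in marker-low cells. Over the whole epithelium it went from 17.4 to 36.1, of which DMBT1 made 7.51 and 18.2. GUCA2A, the hormone guanylin, was also in this list and made 5.60 and 2.95 of that sum. It was among the 2 genes called lower in marker-low cells, with a log2 ratio of -1.08. In PTPRC cells the list had a median of 1.04. No share or median over all genes was computed for PTPRC cells, so list medians there have no background beside them. The PTPRC cells were not alike in the libraries. Their summed T and NK cell markers went from 88.6 to 38.7 per 10000 and their myeloid and mast cell markers from 30.01 to 92.6. The part of that mix in the ratios of PTPRC cells was not tested. DMBT1, a secreted scavenger receptor glycoprotein that binds bacteria, went from 7.51 per 10000 (7.44 to 7.58) to 18.2 (18 to 18.3). Its log2 ratio was 1.62 in marker-high and 1.54 in marker-low cells. With 1000 UMIs per cell, 50.5% of marker-high cells (48.8 to 52.3) had a DMBT1 UMI at d0 and 79.4% (76.5 to 82.0) at d1, against 86.7% and 93.2% unthinned. The thinned share in PTPRC cells was 2.13% and 12.05%, and 4.01% and 33.3% unthinned, at median depths of 2352 and 3314 UMIs.

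A pair of neighbouring protease inhibitors of chromosome 17 rose with it. SLPI, an inhibitor of leukocyte proteases with antimicrobial activity, went from 1.06 per 10000 (1.03 to 1.09) to 4.48 (4.42 to 4.54), with log2 ratios of 2.37 in marker-high and 1.69 in marker-low cells. PI3, the elastase inhibitor elafin, went from 0.549 to 4.52 per 10000, with 2.23 and 1.94. At d0 the PI3 count was uneven, and 1 cell held 11.9% of it. The unnamed gene LOC100512873 lies between PI3 and SLPI (chr17:47579081-47581861, Sscrofa11.1) and went from 5.84 to 31 per 10000, a log2 ratio of 2.39. It has no symbol, so it falls outside the rule for named genes and was chosen after its values were seen.

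Genes that make oxidants or protect from them formed no list of their own, and 4 of them are given here by name. DUOX2, the epithelial oxidase that makes hydrogen peroxide at the apical surface, was close to absent at d0, with 15 cells holding a UMI, and was found in 1132 cells at d1. Its level went from 0.00283 per 10000 (0.00162 to 0.00459) to 0.490 (0.470 to 0.510). In marker-high cells the d1 level was 1.12 per 10000 and in marker-low cells 0.370, against 0.0293 at d1 in PTPRC cells, which held no DUOX2 UMI at d0. DUOXA2, which matures that oxidase, went from 0.0023 to 0.138 per 10000, below the mean level for a call. NOXO1, an organiser of the oxidase NOX1, went from 0.195 to 0.810 per 10000, with log2 ratios of 1.37 and 1.93 in the classes. GPX2, a glutathione peroxidase of the gut epithelium, went from 0.293 per 10000 (0.279 to 0.307) to 2.84 (2.79 to 2.88).

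GPX2 was detected in a larger share of cells at d1 in both classes. After thinning to 1000 UMIs its share in marker-low cells was 5.19% (4.29 to 6.22) at d0 and 20.6% (19.2 to 22.1) at d1, against 30.3% and 66.5% unthinned. In PTPRC cells the thinned share was 0 of the cells at d0, with an upper bound of 1.11%, and 0.602% at d1, with 0% and 1.93% unthinned. Its log2 ratio was 2.14 in marker-high and 2.34 in marker-low cells.

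More interferon-induced genes were called higher in marker-high than in marker-low cells. In marker-high cells, 10 of the 15 examined genes of the interferon list were higher at d1 and 0 lower, each of the 15 had a ratio above 0, and the median log2 ratio was 1.31, where 2.21% of all examined genes were higher. In marker-low cells 2 of 6 examined genes were higher, where 1.73% of all genes were, and the median was 0.60. The median in PTPRC cells was 0.56. The difference between the classes was not tested. A gene low at d0 was examined only where its d1 level was high, so these counts and medians depend in part on the rise. Summed over the 27 list genes in the matrices, with no level filter, the level went from 5.77 to 17.2 per 10000 in marker-high cells. In marker-low cells that sum went from 3.45 to 6.28 per 10000. GBP1, a guanylate binding protein that attacks intracellular microbes, went from 0.370 per 10000 (0.350 to 0.391) to 2.80 (2.68 to 2.92) in marker-high cells and from 0.0823 to 0.449 in marker-low cells. Within the epithelium its d1 level stood at 0.326 per 10000 in cells with a marker level under 5 and at 4.65 in cells with 50 or more, and the d0 level over the same bins went from 0.0722 to 0.779.

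ISG15, a ubiquitin-like modifier, went from 0.834 to 3.06 per 10000 in marker-high cells, a log2 ratio of 1.76, and had 0.28 in marker-low cells. MX1, a dynamin-like antiviral protein, had log2 ratios of 1.73 and 0.41. IFI6, a mitochondrial survival factor, had 1.51 and 0.90. IRF1, a transcription factor that drives many of these genes, was higher in both classes, with 1.31 and 1.35. ISG15 in PTPRC cells stood at 3.04 per 10000 at d0 and 2.20 at d1, so its d1 rise in marker-high cells had no counterpart there, while MX1 went from 0.1003 to 0.403 and IRF1 from 0.872 to 1.54.

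Genes of antigen presentation had medians above 0 in both classes. Over the whole epithelium 2 of 11 were called higher and 0 lower (1.71% and 2.00% of all genes), with a median of 0.69. These 2 were the class II genes CD74 and SLA-DRA. Of 11 examined genes in marker-high cells 4 were higher and 0 lower (2.21% and 0.472% of all genes). Each had a ratio above 0, and the median was 0.99. In marker-low cells 5 of 10 were higher (1.73% of all genes), again with a median of 0.99, and in PTPRC cells the median was 0.34. SLA-1, a classical class I molecule of the pig, went from 4.07 per 10000 (4.01 to 4.14) to 10.8 (10.6 to 11.02) in marker-high cells and from 1.68 to 4.704 in marker-low cells. Reads of SLA-1 could be shared with other class I genes of near-identical sequence, so its level is uncertain. B2M, the light chain of class I molecules, had log2 ratios of 1.00 and 0.65. CD74, the class II invariant chain, went from 0.0677 to 0.777 per 10000 over the epithelium, but stood at 47.9 and 61.7 per 10000 in the PTPRC cells. In marker-high and marker-low cells the log2 ratios were 2.37 and 2.13 for CD74, and 1.82 and 1.93 for SLA-DRA. The summed level of 8 myeloid and mast cell markers went from 0.0414 to 0.427 per 10000 in epithelial cells and from 30.01 to 92.6 in PTPRC cells. Of the 8, 1 and 0 were at a count of 0 in the epithelium. The part of such cells in the rises of CD74 and SLA-DRA, and in the counts of this list, was not tested.

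Few genes of cytokines and the NF-kB response were called higher, and 0 lower. They numbered 2 of 14 over the whole epithelium (1.71% of all genes) with a median of 0.56, 3 of 14 in marker-high cells (2.21%) with 0.75, and 4 of 12 in marker-low cells (1.73%) with 0.79. The median in PTPRC cells was 1.01, with no median over all genes beside it. The 2 genes of this list called over the whole epithelium were ZC3H12A and IL1A. TNFSF10, the death ligand TRAIL, belongs instead to the list of apoptosis and cell shedding. It went from 0.441 per 10000 (0.423 to 0.458) to 1.65 (1.62 to 1.69), with log2 ratios of 1.88 and 1.80 in the classes. In PTPRC cells TNFSF10 stood at 0.622 and 0.520. ZC3H12A, an endonuclease that degrades cytokine messages, had 1.55 in marker-high and 1.85 in marker-low cells. IL1A, an alarm cytokine of epithelia, went from 0.0511 to 0.479 per 10000, and in PTPRC cells from 0.170 to 1.14. CLDN4, a claudin of the tight junction list, was called higher within the classes, with 1.30 and 1.00, while its ratio over the whole epithelium was 0.68. Its call in marker-low cells was kept under 7 of 16 alternatives.

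Genes of lipid transport and absorption parted between the 2 classes. Over the whole epithelium 7 of 17 examined genes of lipid uptake and lipoproteins were lower and 0 higher, with a median of -0.74, where 2.00% of all genes were lower. In marker-high cells 4 of 18 were higher and 2 lower (2.21% and 0.472% of all genes), with a median of 0.17. In marker-low cells 6 of 16 were lower and 0 higher (1.47% and 1.73% of all genes), with a median of -0.73. APOB, the structural protein of chylomicrons, stood at 5.36 per 10000 at d0 and 1.90 at d1 over the epithelium. In marker-high cells it went from 7.11 (7.02 to 7.20) to 8.86 (8.65 to 9.07), and in marker-low cells from 2.76 to 0.581. APOA1, the main protein of high density lipoprotein, went from 17.1 per 10000 (17.0 to 17.3) to 35.8 (35.4 to 36.2) in marker-high cells and from 4.697 to 2.00 in marker-low cells. Marker-low cells were not alike in the libraries, since 1109 of 2194 at d0 and 2490 of 3222 at d1 lay under 5 per 10000. Under 5, APOA1 stood at 0.98 per 10000 at d0 and 1.05 at d1, it was higher at d1 in 4 of 5 bins, and with the limit at 5 its log2 ratio in the low class was 0.091.

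APOA4, a lipoprotein protein made when fat is absorbed, was higher only in marker-high cells by the call used, from 0.695 per 10000 (0.667 to 0.724) to 4.50 (4.35 to 4.65). RBP2, which carries retinol inside absorptive cells, went from 9.18 to 17.4 per 10000 in marker-high cells, a log2 ratio of 0.92, and from 5.48 to 1.67 in marker-low cells, -1.65. APOC2, the activator of lipoprotein lipase, had log2 ratios of -0.47 and -3.10, and it was carried by 692 d0 cells and 272 d1 cells. At the top of the marker range, in cells with 50 or more per 10000, the d1 level was 67.0 per 10000 for APOA1 and 13.01 for APOB, against 30.03 and 9.22 at d0. In cells under 5 per 10000 it was 1.05 and 0.202 at d1, against 0.98 and 0.57 at d0. The levels of these genes thus climbed more steeply with the absorptive marker level at d1 than at d0, a comparison that was not tested.

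**Figure D4:**
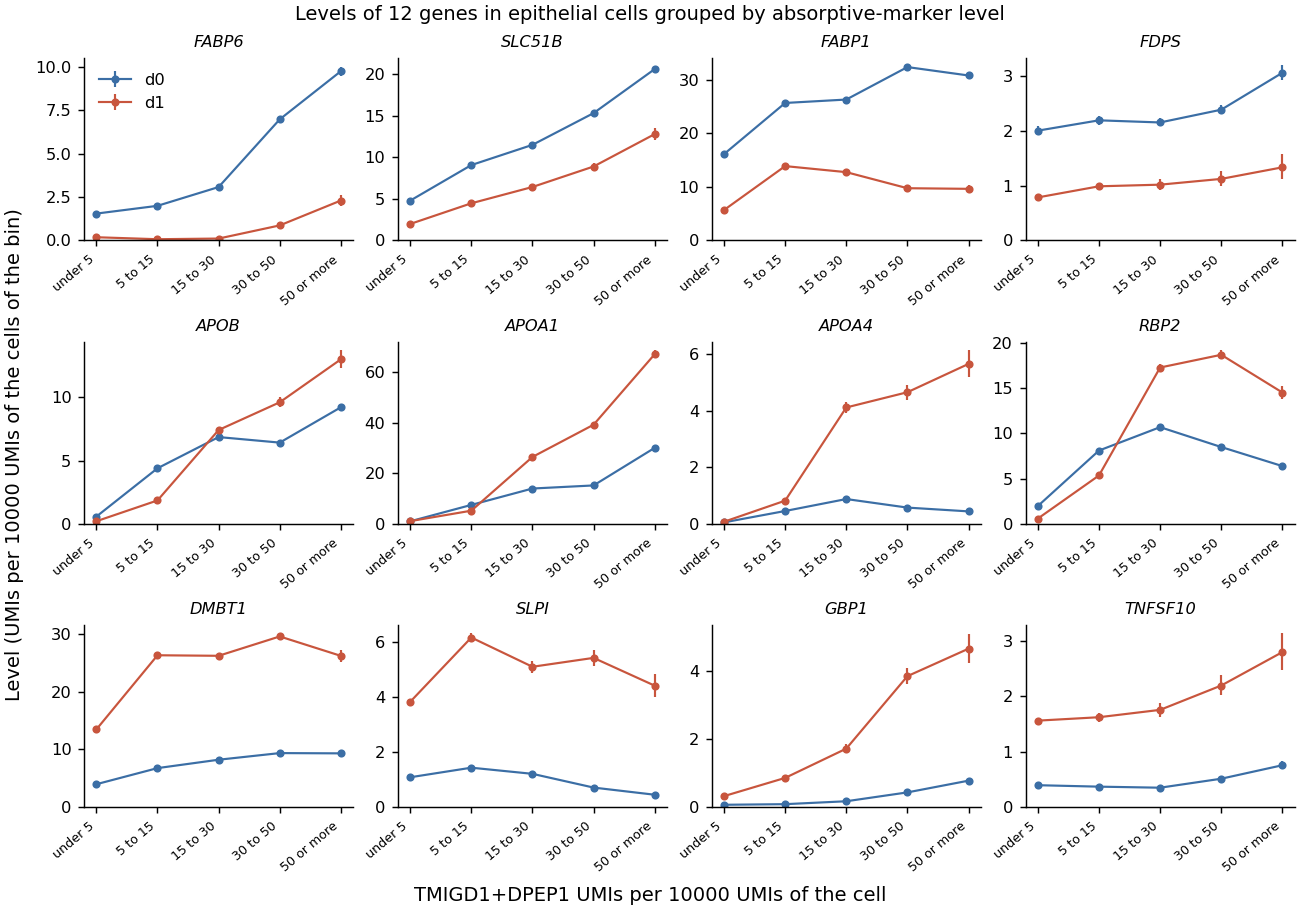
Level (UMIs per 10000) of 12 genes in 5 bins of the summed level of TMIGD1 and DPEP1, for the d0 and the d1 library, with 95% intervals that cover counting error only. FABP6, FABP1, SLC51B and FDPS are lower at d1 in 5 of 5 bins, and DMBT1, SLPI, GBP1, TNFSF10 and APOA4 are higher in 5 of 5, while APOB and RBP2 are lower at d1 in the low bins and higher in the high bins.

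Some brush border and lysosome genes were called lower over the whole epithelium. The medians of the 2 lists were 0.08 and 0.16 in marker-high cells, and -0.47 and -0.30 in marker-low cells. Of 15 examined genes of brush border enzymes 4 were lower over the whole epithelium (2.00% of all genes) with a median of -0.78. In marker-high cells 0 of 16 passed in either direction, near the shares of all genes (2.21% higher and 0.472% lower). In marker-low cells 1 of 14 was lower and 0 higher (1.47% and 1.73% of all genes), and 3 of the 14 had a ratio above 0. MEP1B, a brush border metalloprotease, went from 3.06 to 1.02 per 10000 over the epithelium and stood at 4.48 and 4.66 in marker-high cells. In marker-low cells its log2 ratio was -1.27. SI, the sucrase of the brush border, went from 0.722 to 0.205 per 10000, with -0.44 in marker-high and -0.76 in marker-low cells.

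The list of endocytosis and lysosome genes had 2 of 16 genes lower over the whole epithelium (2.00% of all genes), with a median of -0.48. In marker-high cells 0 of 18 passed, again near the shares of all genes (2.21% higher and 0.472% lower). In marker-low cells 1 of 16 was lower and 0 higher (1.47% and 1.73% of all genes), and 0 of the 16 had a ratio above 0. CTSZ, a lysosomal cathepsin, went from 5.30 to 2.19 per 10000 over the epithelium and stood at 7.00 and 7.01 in marker-high cells. In marker-low cells its log2 ratio was -1.06. NEU1, a lysosomal sialidase, had -0.31 in marker-high cells and -0.79 in marker-low cells.

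Of 16 examined genes of amino acid transport and arginine synthesis, 7 were lower and 1 higher over the epithelium with a median of -0.81, where 2.00% of all genes were lower. In marker-high cells 0 of 16 were lower and 1 higher (0.472% and 2.21% of all genes) with a median of -0.02. In marker-low cells 4 of 14 were lower and 1 higher (1.47% and 1.73% of all genes) with a median of -0.50. SLC7A8, a transporter of neutral amino acids, went from 1.85 to 0.459 per 10000. CPS1, which makes carbamoyl phosphate, stood at 0.875 and 0.943 per 10000 in marker-high cells and at 0.655 and 0.171 in marker-low cells. ASS1, the argininosuccinate synthase, went the other way in marker-high cells, from 2.10 per 10000 (2.05 to 2.15) to 6.58 (6.40 to 6.76).

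**Figure D5:**
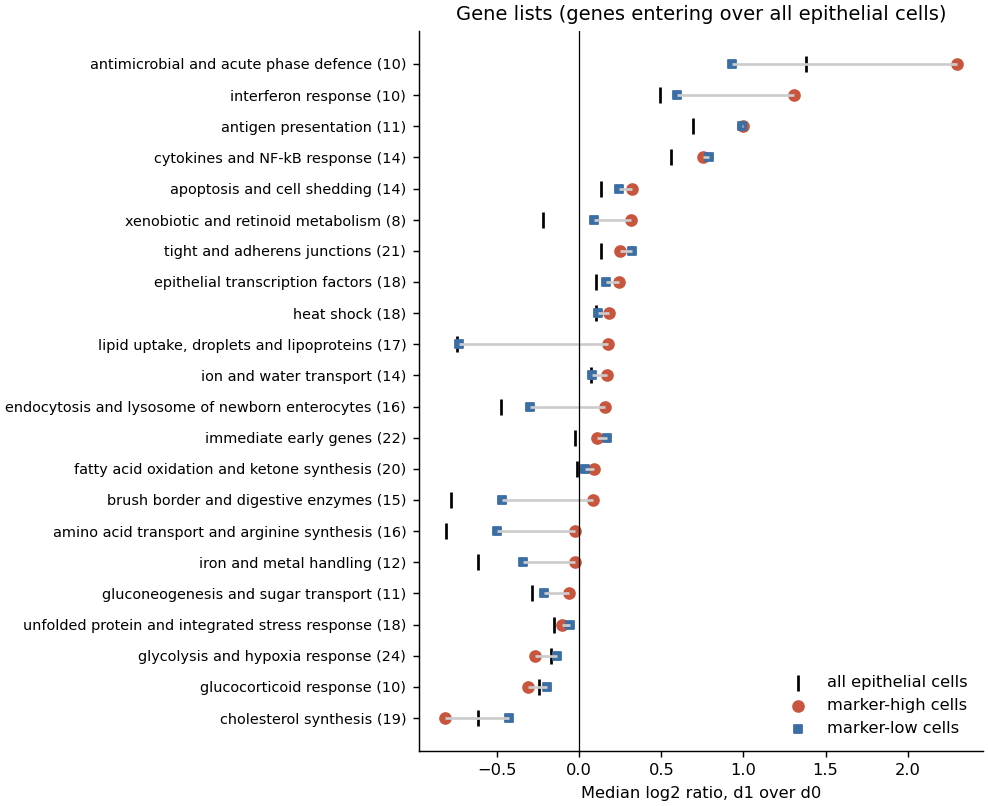
Median log2 ratio of d1 over d0 (0.1 added to each level) of the examined genes of 22 gene lists, in the whole epithelium, in marker-high and in marker-low cells. The interferon list (1.31) and the antimicrobial list (2.30) have the highest medians in marker-high cells and the cholesterol list (-0.82) the lowest, beside 0.02 for all examined genes. Genes low at d0 are examined only through their d1 level, so the 2 highest medians depend in part on the rise.

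Lists of energy metabolism and of stress moved little at the median over the whole epithelium. The fatty acid oxidation list had a median of -0.01 over the whole epithelium, and of its 20 examined genes 1 was called, CPT1A, the carnitine transferase that admits fatty acids to mitochondria, which went from 0.174 to 0.468 per 10000. The medians over the whole epithelium were -0.17 for glycolysis and the hypoxia response, -0.02 for immediate early genes, 0.10 for heat shock genes and -0.16 for the unfolded protein response. DDIT3, a transcription factor of the stress response, was the member of the last list that passed, from 3.00 per 10000 (2.96 to 3.05) to 1.18 (1.15 to 1.21). Of 17 examined heat shock genes, 2 were called higher in marker-high cells, where 2.21% of all genes were. The summed levels of the immediate early genes, which tissue dissociation is known to induce, were 165.5 per 10000 at d0 and 156.3 at d1. Within the classes the sum was higher at d1, from 181.9 to 200.4 in marker-high and from 141.1 to 148.0 in marker-low cells.

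The remaining lists are given by their medians. The medians in marker-high and marker-low cells were -0.06 and -0.21 for gluconeogenesis and sugar transport, -0.31 and -0.20 for the glucocorticoid response, 0.17 and 0.08 for ion and water transport, and 0.31 and 0.09 for xenobiotic and retinoid metabolism. They were -0.03 and -0.35 for iron and metal handling, 0.24 and 0.16 for epithelial transcription factors, 0.25 and 0.32 for tight and adherens junctions, and 0.32 and 0.24 for apoptosis and cell shedding. In the iron and metal list 3 of 15 genes were nevertheless higher in marker-high cells, where 2.21% of all genes were, the metallothioneins MT1D and MT1A and the zinc exporter SLC30A1. FTH1, the heavy chain of ferritin that stores iron, whose reads could be shared with near-identical copies, went from 121.6 per 10000 to 58.8 over the epithelium, with log2 ratios of -0.36 in marker-high and -0.76 in marker-low cells. SLC26A3, the chloride and bicarbonate exchanger of the colon surface, went from 5.25 to 2.57 per 10000 over the epithelium, with -0.28 and -0.50. The stem and crypt list had 2 of 5 examined genes higher over the whole epithelium with a median of 0.64. The cell cycle list had 1 of 6 with a median of 0.36, where 1.71% of all genes were higher. Within marker-low cells the medians of these 2 lists were 0.44 and 0.24.

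Goblet markers were more abundant at d1 over the whole epithelium and in marker-high cells, while 0 were called higher in marker-low cells. Of 6 examined goblet markers 3 were higher and 0 lower over the epithelium (1.71% and 2.00% of all genes) with a median of 1.01. In marker-high cells 4 of 6 were higher (2.21% of all genes) with a median of 1.25. In marker-low cells 0 of 7 were higher and 1 lower (1.73% and 1.47% of all genes) with a median of -0.10. The summed level of the goblet markers there was 67.0 per 10000 at d0 and 62.9 at d1. Cells with at least 2 goblet marker genes and 3 UMIs of them made up 27.3% of d0 cells (26.1 to 28.5) and 45.0% of d1 cells (43.5 to 46.6), and 0% and 6.61% of the PTPRC cells. They made up 26.2% and 48.5% of marker-high cells and 29.0% and 44.0% of marker-low cells. These shares were not thinned, and the PTPRC cells were shallower. After thinning to 1000 UMIs, 1.67% of marker-high cells held CLCA1 at d0 and 6.14% (4.63 to 7.96) at d1. In PTPRC cells that share was 0.608% and 4.22% (2.32 to 6.97). For MUC2 the thinned shares were 1.67% and 6.03% (4.53 to 7.83) in marker-high cells and 0.912% and 2.41% (1.05 to 4.69) in PTPRC cells. MUC2, the gel-forming mucin of the colon and cecum, went from 1.92 to 4.29 per 10000, and CLCA1, a protease secreted into the mucus, from 2.81 to 9.80. Within marker-low cells, which held most of both, MUC2 stood at 4.15 and 4.86 per 10000 and CLCA1 at 6.25 and 11.2. AGR2, a disulfide isomerase needed to fold mucin, was lower there, from 9.34 per 10000 (9.22 to 9.47) to 3.87 (3.81 to 3.93). OLFM4, a secreted glycoprotein of crypt cells, went from 0.469 to 3.78 per 10000 over the epithelium and from 1.14 to 4.49 in marker-low cells, with 166 d0 cells and 1073 d1 cells holding a UMI. After thinning to 1000 UMIs, 3.32% of marker-low cells (2.60 to 4.17) held OLFM4 at d0 and 18.3% (16.9 to 19.7) at d1, against 6.75% and 31.3% unthinned. The PTPRC cells gave 0% and 2.71% after thinning and 0.287% and 7.44% before it.

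The genes whose ratio differed most between the classes included hormones carried by very few cells. NTS, the gut peptide neurotensin, had log2 ratios of 3.58 in marker-high and -3.91 in marker-low cells, and 1 cell held 99.9% of its d1 count in the former and 1 cell held 76.9% of its d0 count in the latter. PYY, the peptide of ileal and colonic L cells, had 2.26 and -1.24, and 1 cell held 50.4% of its d1 count in marker-high cells. In the other direction stood FGFBP1, a carrier of fibroblast growth factors, with -1.85 in marker-high and -0.74 in marker-low cells. HSD17B2, which inactivates estradiol and testosterone, had -0.88 and 0.21, and EID3 had 0.32 and 1.53.

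C3 and MT1D show how far the whole epithelium and its classes can part. C3, the central complement protein, went from 0.067 to 1.40 per 10000 over the epithelium and from 0.164 to 1.65 in marker-low cells, and stood at 0.0816 at d1 in marker-high cells. MT1D, a metallothionein that binds zinc and copper, went from 0.0171 per 10000 (0.0130 to 0.0221) to 3.03 (2.91 to 3.15) in marker-high cells and from 0.00924 to 0.128 in marker-low cells. It was carried by 224 of the 921 marker-high d1 cells, and in PTPRC cells its level was 0 at d0 and 0.0293 per 10000 at d1. Its reads could be shared with other metallothionein genes of near-identical sequence, so its level is uncertain.

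The Y-linked gene EIF1AY, a translation factor, passed the rule for rises in both classes. Its level went from 0.546 per 10000 (0.526 to 0.565) to 1.54 (1.504 to 1.57) in the epithelium and from 0.0802 to 0.476 in PTPRC cells. The 5 examined genes annotated on chromosome Y were all called higher at d1 over the whole epithelium, where 1.71% of all examined genes were. This group of genes was chosen after the values were seen. The labels give male for both libraries, and the share of cells from each piglet was not measured.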

How the data were processed

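Cecal mucosa of piglets of 5 ages was profiled by droplet single-cell RNA sequencing, 1 library per age with cells of 5 piglets mixed. The deposited matrices hold raw UMI counts of genes in barcodes, obtained by the authors with Cell Ranger 3.1.0 and STAR on the pig build susScr11 (Sscrofa11.1) according to the submitters' processing notes. No normalization had been applied. The tables held 20648 gene symbols. RefSeq supplied positions for 20626 of them.

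From these counts, cells were chosen by the stated rule, counts of the chosen cells were summed for each library, and levels were given per 10000 UMIs. Genes with a mean level of at least 0.2 per 10000 were examined, and 0.1 was added to both levels before the log2 ratio. A call was a log2 ratio of at least 1 or at most -1. With 1 library per age no test was made. Intervals are exact at 95% (Poisson for levels, Clopper-Pearson for shares, conditional binomial for ratios) and cover counting error only. Depth was 8286 and 8692 UMIs per cell at the median. Shares of cells that hold a gene's UMI were compared after each cell was thinned to 1000 UMIs. Shares of cells that hold sets of goblet or enteroendocrine markers were not thinned.

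Named genes were the 12 largest rises and falls with a symbol and a mean level of at least 0.5 per 10000 that passed in both marker classes (only 6 falls did so), up to 6 genes of each of 25 gene lists, and the 4 genes in each direction with the largest difference between the classes. Of 712 entries in 38 lists, these 25 and 13 lists of cell type markers, 681 were in the matrices. The members, limits and lists were chosen with earlier results of these data known, and other named genes were chosen after their values were seen. No doublet caller was run. Cells with PTPRC were left out, and removal of cells with markers of other lineages and of the deepest 5% was an alternative. Other alternatives changed the denominator, centring, cell weights, depth, limits, pseudocount and level filter. Scripts used Python 3.11.15, NumPy 2.4.6, SciPy 1.17.1, pandas 2.3.3 and matplotlib 3.10.9, and were tested on simulated data.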

Additional observations from a re-analysis of the deposited data

Results flagged for a closer look

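Of the genes examined in both classes, 3 moved in opposite directions in the 2 marker classes past the limit used, and in each case the difference was not tested. APOA1 had a log2 ratio of 1.06 in marker-high and -1.19 in marker-low cells, where the sign turned to 0.091 with the limit at 5, and its level was higher at d1 in 4 of 5 bins of the marker level. NTS had 3.58 and -3.91, and PYY had 2.26 and -1.24, and both counts rested on few cells.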

How the results depend on the processing

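Each count and share was recomputed under the alternatives, and 84 of 124 values stayed within 1.5 times the count or within 1 interval of the share. No replicate could be left out and no paired analysis was possible because each age had 1 library. The cause of each change below was not tested unless the alternative itself, such as fewer genes examined, shows it.

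Rises over the whole epithelium (92) numbered 145 with every cell weighing the same, 143 after thinning, 141 with 0.01 added, 21 with 1 added, 20 at a mean level of at least 1, 202 with no level filter and 42 among genes at least as high inside the epithelium. Falls (108) numbered 163 with mitochondrial UMIs under 10%, 22 with 1 added, 59 at a level of at least 1 and 20 with d1 weighted to the d0 share of marker-high UMIs. In marker-high cells rises (117) numbered 26 with 1 added, 40 at a level of at least 1, 188 with no filter and 61 among genes at least as high inside, and falls (25) numbered 45 under 10% mitochondrial UMIs, 43 with 0.01 added, 5 with 1 added, 10 at a level of at least 1 and 43 at a marker limit of 30. In marker-low cells rises (93) numbered 157 with equal weights, 160 after thinning, 20 with 1 added, 23 at a level of at least 1, 196 with no filter, 149 without secretory-marker cells and 41 among genes at least as high inside, and falls (79) numbered 16 with 1 added, 37 at a level of at least 1 and 44 at a marker limit of 5.

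The d0 share of marker-high cells was 56.4% after thinning, 45.1% under 10% mitochondrial UMIs, 55.0% with no mitochondrial limit, 79.9% at a limit of 5 and 36.3% at 30. The d1 share was 11.07% under 10% mitochondrial UMIs, 23.7% with no mitochondrial limit and also with at least 10 epithelial UMIs, 39.9% at a limit of 5 and 11.8% at 30. It stayed below the d0 share under each of these.

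Of 246 named log2 ratios past the limit, counted whatever the mean level of the gene, 65 stayed past it in the same direction under every alternative. Some of the 246 are therefore not calls by the rule used here. With 1 added, 33 of 89 stayed past the limit over the whole epithelium, 26 of 77 in marker-high and 30 of 80 in marker-low cells, and with d1 weighted 50 of 89 did. Across the alternatives 11 values changed sign. With d1 weighted, APOB over the whole epithelium was 0.044, ENPEP 0.036, NTS 0.15 and SLC6A19 0.11. In marker-high cells NTS was -0.038 under 10% mitochondrial UMIs, -0.12 without cells of other lineages' markers and -0.070 at a limit of 30. In marker-low cells APOA1 was 0.091 at a limit of 5, PYY was 0.50 without cells of other lineages' markers and 0.55 without secretory-marker cells, and NTS was 0.20 without the latter. Of 1350 list medians, 1271 stayed within 0.25 of their main value. Of those with a main value of at least 1 in size, 0 changed sign, and a change of sign of smaller medians was not counted. With no mitochondrial limit the median of all genes in marker-low cells was 0.13. The alternatives without a mitochondrial limit, with at least 2000 UMIs and with genes at least as high inside were chosen after seeing the data.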

Other observations

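BEST4 cells, a minor absorptive class of the large intestine, were represented by 5 markers whose summed level in the epithelium was 7.69 per 10000 at d0 and 3.88 at d1. GUCA2A, the guanylin hormone of the gut surface, made 5.60 and 2.95 per 10000 of that sum, with log2 ratios of -0.29 in marker-high and -1.08 in marker-low cells. The sum is therefore largely a level of GUCA2A and not a measure of the number of BEST4 cells. GUCA2B, uroguanylin, went from 2.32 per 10000 (2.26 to 2.39) to 0.624 (0.600 to 0.649) in marker-low cells and stood at 1.26 and 1.49 in marker-high cells. BEST4 itself, an ion channel, was carried by 146 d0 cells and 77 d1 cells, at 0.108 and 0.0427 per 10000. Enteroendocrine markers held by at least 2 genes and 3 UMIs were found in 2.39% of d0 cells (2.00 to 2.83) and 4.30% of d1 cells (3.70 to 4.96), and within marker-low cells in 4.92% and 5.06%. CHGA, the granin of endocrine granules, stood at 1.39 and 0.862 per 10000 in marker-low cells.

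The epithelial cells of the later libraries were far fewer, 323 at day 7, 207 at day 14 and 824 at day 21, and their values stand here with no comparison. FABP6 was at 0.0202, 0.00576 and 0.0638 per 10000 in those 3 libraries. FABP1 was at 105.0 per 10000 at day 7 and at 4.54 and 2.76 after it. DMBT1 was at 22.3, 2.44 and 1.56 per 10000, OLFM4 at 26.0, 73.8 and 39.8, C3 at 5.24, 13.2 and 6.88, and PI3 at 14.3, 39.1 and 17.4. APOA4 was listed at 0 in each of the 3.

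Cytosolic ribosomal protein genes had a median log2 ratio of 0.25 over the whole epithelium, -0.27 in marker-high and -0.02 in marker-low cells, and 0 of 75 passed the limit in any of them. The 13 mitochondrially encoded genes had medians of -0.45, -0.10 and -0.29.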
